A study of Mus musculus and Rattus norvegicus with 80 samples.

Results

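UID-15218 is a single long interspersed element-1 (L1) locus on chromosome 18 of the mouse, at chr18:68475937-68480935 of the mm10 genome on the minus strand. It was chosen by its read counts in testes and other organs, with its coverage known, so its levels by organ, its place in the list and its coverage are given as descriptions, without a test. The FL_intact list holds the annotated full-length L1 loci with intact open reading frames. UID-15218 is 1 of 2788 loci of that list and 1 of 17019 L1 loci counted in the mouse libraries. It was followed in 68 libraries of cytoplasmic, polyadenylated RNA from C57BL/6 mice without any treatment or engineered allele. Males gave 12 testes and 12 livers, with 3 animals in each of 4 age groups (1.9-3.6 mo, 7.6 mo, 12.8 mo and 22.3 mo), and 6 brains and 5 lungs from 7.6 mo and 12.8 mo animals. Females aged 2.2-3.2 mo, 8-8.7 mo or 16.5 mo gave 9 ovaries, 9 brains, 9 lungs and 6 uteri. Each animal gave several organs, so the 68 libraries do not come from as many mice. The sample labels name the male gonad as a reproductive organ and the study's methods name it as testes. The files count L1 loci alone, so organ identity could not be checked against marker genes. In bulk RNA, a change in the number of expressing cells and a change in RNA per cell cannot be told apart.

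L1 elements are retrotransposons that copy themselves through an RNA intermediate. A full-length L1 mRNA encodes ORF1p, an RNA-binding protein, and ORF2p, which carries the endonuclease and reverse transcriptase activities needed for a new insertion. Most genomic copies are truncated or mutated, so a locus with intact reading frames is of interest as a possible source of new insertions, and expression in the germ line matters because insertions there can be inherited.

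The annotated interval of UID-15218 is 4999 bases long, a length shared by 63.5% of the FL_intact loci. Reads were counted in a window that extended 1000 bases downstream and 700 bases upstream of the locus, 6699 bases in all. In the 12.8 mo libraries the window was 10403 bases long. It began 200 bases further downstream and ended 3504 bases further upstream, and the locus was named UID-579 there. No gene of GENCODE M21 overlapped either window, so the locus is intergenic in this annotation. The nearest gene on its 3′ side was a processed pseudogene, AC021063.1, 42760 bases away, followed by Mc2r, the adrenocorticotropic hormone receptor gene, 46617 bases away. On its 5′ side the nearest was the lincRNA AC147020.1, 78487 bases away. The closest other L1 locus, UID-4839, lay 89208 bases away and had reads in 6 of the 68 libraries, with 6 reads at most. UID-4721, 141341 bases away, had reads in 27 libraries, with 20 reads at most in a testis and 30 in a brain. Both are of the FL_non-intact list.

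UID-15218 was read in every testis. At 1.9-3.6 mo the testes of mice 1071, 1110 and 1111 had 351, 457 and 340 reads. At 7.6 mo mice 1209, 1303 and 1305 had 423, 424 and 255 reads, the last being the lowest count of any testis. At 12.8 mo mice 899, 900 and 901 had 435, 418 and 531 reads in the longer window, and at 22.3 mo mice 829, 830 and 831 had 419, 347 and 403 reads. In total the 12 testes held 4803 reads of the locus and the other 56 libraries held 12.

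Outside the testis, 54 of 56 libraries had 0 reads. The 2 exceptions were the lung of mouse 1303, with 6 reads over 77 bases, and the 12.8 mo brain of mouse 900, with 6 reads over 107 bases. The testes of the same mice had 424 and 418 reads. Of the other 7 loci on the curated testis list of the study with at least 200 reads per testis, 6 had 0 reads in both of these libraries, and UID-4732, which had reads in 40 non-testis libraries, had 10 in the lung and 29 in the brain. All 33 female libraries, ovaries included, and all 12 livers had 0 reads of UID-15218.

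Expressed as fragments per kb per M mapped reads (FPKM, with a length of 6 kb for every locus), the level was 1.72 ± 0.24 (SD, n = 9) in the testes of 1.9-3.6 mo, 7.6 mo and 22.3 mo, which share 1 window. The lowest testis of all ages stood at 1.35 FPKM and the highest at 3.23 FPKM. The lung of mouse 1303 was at 0.0583 FPKM and the brain of mouse 900 at 0.0382 FPKM. The lowest testis was thus 23.1-fold above the highest other library. With 0 reads, a floor of 3 reads allowed up to 0.0592 FPKM in the shallowest library, a female lung with 8.45 M mapped reads, and 0.00973 FPKM in the deepest, a female brain with 51.4 M. Against the highest floor per library in each organ with 0 reads throughout, the mean of the 9 testes was higher by at least 29.0-fold against female lungs, 40.1-fold against ovaries, 53.3-fold against uteri, 61.5-fold against livers and 65.4-fold against female brains. Male brains and male lungs each held 1 library with reads, given above, so no bound is given for them. Compared with the livers of the same age, the testes were at least 116-fold higher at 1.9-3.6 mo, 65.4-fold at 7.6 mo, 110-fold at 12.8 mo and 123-fold at 22.3 mo. Per M L1 reads in place of mapped reads, these bounds were 26.2-fold, 46.2-fold, 53.8-fold and 70.0-fold. Floors cover counting error only.

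**Figure D1:**
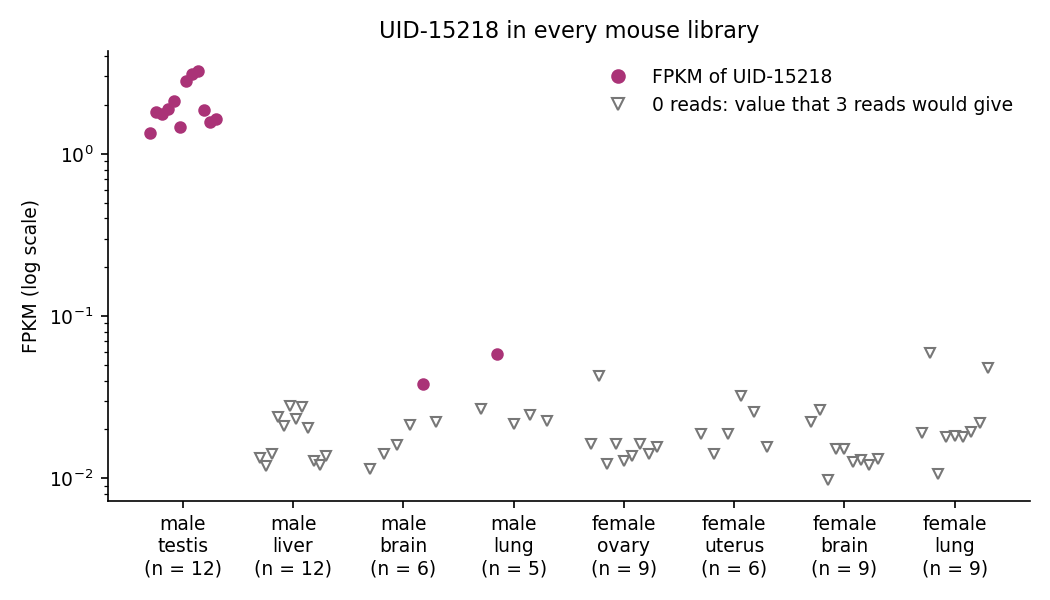
FPKM of UID-15218 (log axis) in each of 68 mouse libraries by sex and organ, with the libraries of an organ in order of age; filled circles are measured values and open triangles mark the value that 3 reads would give in a library with 0 reads. The 12 testes lie between 1.35 and 3.23 FPKM, and the 2 other libraries with reads lie at 0.0382 and 0.0583 FPKM.

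Loci of the FL_intact list were rarely read. Of the 2788 loci, 1039 (37.3%) had no read in any mouse library and 1960 had none in the 9 testes with the shorter window. In these 9 testes 24 loci had a read in every testis, and 3 loci had at least 10. UID-15218 was second by reads in each of the 9. It held 13.1% to 23.9% of all FL_intact reads, with a median of 18.5%. Among loci of any list it ranked between 10 and 17.

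UID-16508, on chromosome 8, was the one FL_intact locus above it, at 4.55 ± 1.62 FPKM (SD, n = 9) and 630 to 1421 reads. It is not on the curated testis list, for which the authors inspected the reads of each locus in a genome browser. UID-17077, on chromosome 7, was next at 0.182 ± 0.027 FPKM (SD, n = 9) and was also read in 45 non-testis libraries, with up to 305 reads. UID-14945, on chromosome 5, was at 0.0867 ± 0.0474 FPKM (SD, n = 9), and UID-16324, on chromosome 2, was at 0.0546 ± 0.0322 FPKM (SD, n = 9).

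Among loci that the study curated as expressed, UID-15218 made up nearly all reads of the intact list. It was listed in all 12 testes. The curated testis list held 469 loci, of which 7 were FL_intact. In the 9 testes UID-15218 held 89.5% to 96.9% of the reads of the curated FL_intact loci of that testis (median 93.9%). The next curated FL_intact locus, UID-16511 on chromosome 8, had 2 to 14 reads and 0.0384 ± 0.0229 FPKM (SD, n = 9), which is 44.7-fold lower. UID-15676, on chromosome 13, had 2 to 18 reads and 0.0380 ± 0.0253 FPKM (SD, n = 9). Of the reads on all curated loci of a testis, UID-15218 held 3.65% to 12.9% over the 12 testes (median 5.60%).

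**Figure D2:**
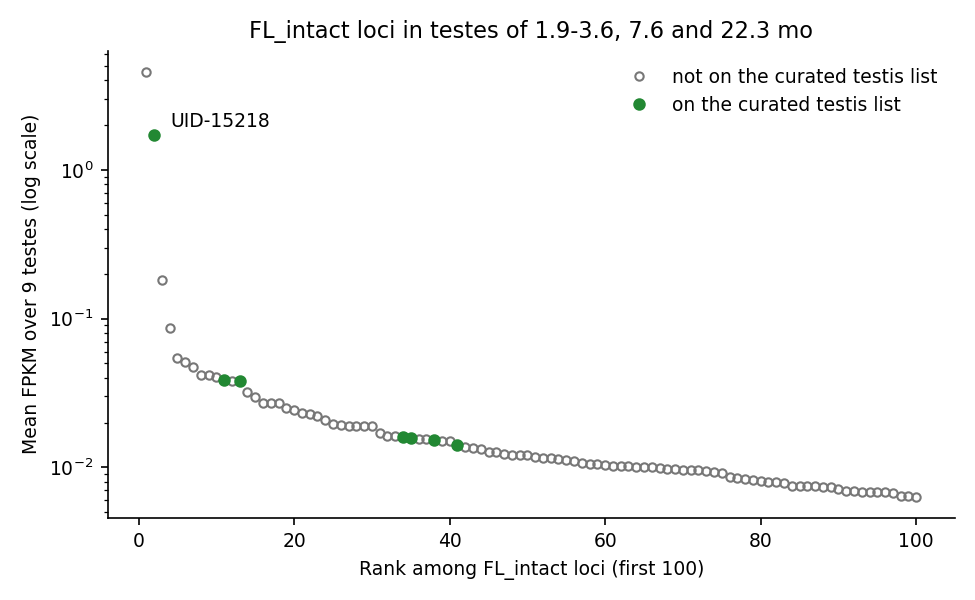
Mean FPKM over the 9 testes of 1.9-3.6 mo, 7.6 mo and 22.3 mo (log axis) for the 100 FL_intact loci with the highest means, by rank; filled circles are loci on the curated testis list and open circles are not on it. UID-15218 is second at 1.72 FPKM, below UID-16508 at 4.55 FPKM and above UID-17077 at 0.182 FPKM.

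The reads of UID-15218 covered a small part of its window. In 8 of the 9 testes with the shorter window they covered 264 to 285 bases, and in the testis of mouse 831 they covered 538 bases. The median was 267 bases, or 3.99% of the window. In the 12.8 mo testes the longer window had 477, 465 and 472 covered bases, so the median was higher by 205 bases. Sequencing reads were 100 or 150 bases long, since the paper used both Illumina (100 bases) and DNBseq (150 bases). The platform of each library was not used here. Whether covered bases or differences between ages follow it was not tested.

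Other highly read curated loci, all of the FL_non-intact list, were covered far more widely. UID-5948, the most highly read curated locus of the FL_non-intact list, had 5295 covered bases (86.3% of its window), UID-13740 had 5144 (80.3%) and UID-4732 had 5482 (82.9%). Over the other 7 curated loci with at least 200 reads per testis, coverage lay between 36.5% and 87.2%, with a median of 82.9%. Among all 26 loci with that many reads, curated or not, none had fewer covered bases than UID-15218. Several loci that are not on the curated list were close to it, such as UID-914 with 291 bases (4.14%) and UID-6793 with 383 bases (5.49%). UID-16508 had 678 bases (10.2%). Of 19 curated loci with at least 50 reads per testis, UID-15218 was the single locus under 10% coverage, whereas 10 of 110 loci outside the curated list were under it. UID-15218 was also the only FL_intact locus of the 19, so this sets an intact locus against non-intact ones. Other FL_intact loci had 290 covered bases for UID-17077, 269 for UID-16324 and 761 for UID-14945. They had far fewer reads per testis, 27 to 49, 3 to 27 and 5 to 38 in order. Fewer reads can cover fewer bases, so these values do not show whether narrow coverage is shared by the list. How much of each window can be uniquely aligned was not tested. The files give the number of covered bases and not their positions, so the covered part could not be placed exactly. In the lung of mouse 1303 the reads covered 77 bases, fewer than the 100 bases of the shorter reads. These reads therefore ran past an end of the window. Both ends lie outside the annotated interval, 1000 bases downstream and 700 bases upstream of it. The interval is shorter than the length the paper gives for a full-length mouse L1. Whether the bases beside it belong to the element was not tested. The longer window reached 200 bases further downstream and 3504 bases further upstream. The median of covered bases in its testes was higher by 205. Whether the reads of testes lie at the downstream end, outside the reading frames, was not tested.

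**Figure D3:**
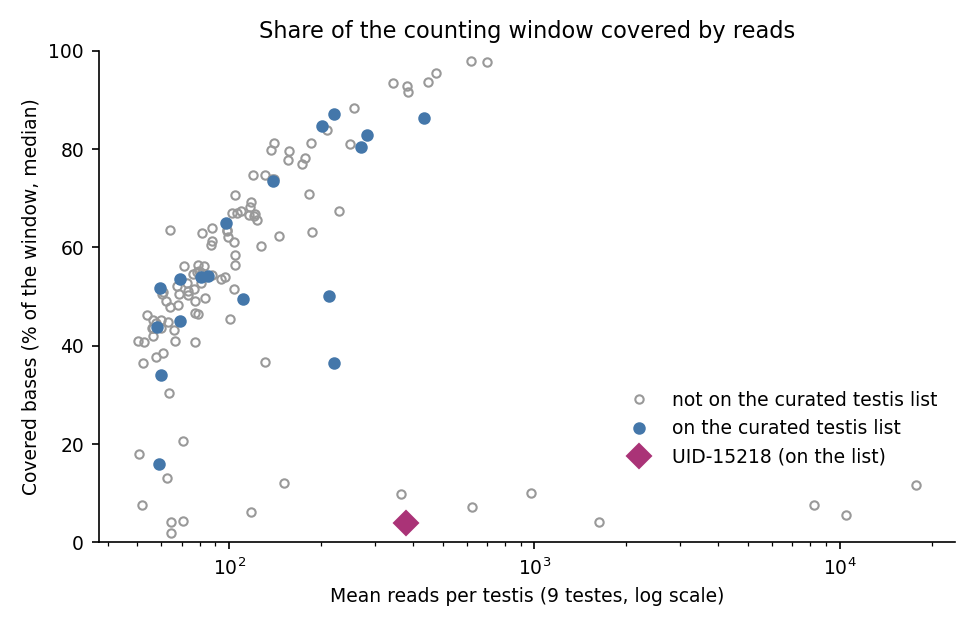
Median share of the counting window covered by reads (%) against the mean number of reads per testis (log axis) for the 129 loci with at least 50 reads per testis over the 9 testes with the shorter window; filled circles are loci on the curated testis list, open circles are other loci and the diamond is UID-15218. UID-15218 lies at 380 reads and 3.99%, while the other 7 curated loci with at least 200 reads, all FL_non-intact, lie at 36.5% or more.

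The read count of UID-15218 was odd in 9 of 12 testes. Mates of a pair are counted separately, so a pair that lies wholly in the window adds an even number. The count was odd in 2 of 12 testes for UID-5948, 2 for UID-13740 and 7 for UID-4732. Outside the curated list it was odd in 8 for UID-9761 and 8 for UID-8317, with 97.7% and 92.9% of their windows covered. It was odd in 6 for UID-914 and 0 for UID-6793, with 4.14% and 5.49% covered. The number of odd counts is thus not read as a trait of UID-15218, and differences between loci were not tested.

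The level varied little between the 9 testes with the shorter window. Its coefficient of variation was 13.8%, the lowest of the 10 curated loci with at least 100 reads per testis, whose values ran up to 40.6% with a median of 28.8%. UID-11874 followed at 14.1%, UID-4732 at 18.3% and UID-5948 at 24.2%. These differences in spread were not tested.

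To ask whether the level changes with age, the 4 groups of testes were compared. Mean FPKM was 1.64 ± 0.25 (SD, n = 3) at 1.9-3.6 mo, 1.82 ± 0.33 (SD, n = 3) at 7.6 mo, 3.04 ± 0.22 (SD, n = 3) at 12.8 mo and 1.69 ± 0.15 (SD, n = 3) at 22.3 mo. All 3 testes of 12.8 mo, at 2.79, 3.09 and 3.23 FPKM, lay above every other testis, and the 3 other groups overlapped. The 4 groups differed in an exact permutation test of log2 FPKM (p = 0.0127 over 369600 arrangements). Without the 12.8 mo testes the exact permutation p was 0.70. The 12.8 mo libraries are also the ones counted in the longer window, so age and window cannot be told apart. Per M L1 reads in place of mapped reads, the 12.8 mo testes had 5227 to 7061 reads of the locus, 7.6 mo testes 4484 to 5415, 1.9-3.6 mo testes 4776 to 5145 and 22.3 mo testes 4439 to 5214. On that scale 1 testis of 7.6 mo exceeded the lowest of 12.8 mo and the exact permutation p over the 4 groups was 0.137. The L1 totals at 12.8 mo were counted in other windows too, so this scale does not separate age from window either.

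UID-15218 was not called in any of 4 age comparisons when all L1 loci were tested together with edgeR's quasi-likelihood test (1083 loci tested, 79 of them FL_intact, Benjamini-Hochberg adjusted p under 0.05). Between 7.6 and 1.9-3.6 mo the log2 fold change was 0.15 ± 0.32 (SE; 95% interval -0.49 to 0.80; edgeR adjusted p = 0.98). In that comparison 0 loci were called (percent called 0.0%), with 53 loci at an unadjusted p under 0.05 and 4 called by DESeq2. Between 22.3 and 7.6 mo it was -0.11 ± 0.32 (SE; 95% interval -0.75 to 0.53; edgeR adjusted p = 1.0), with 1 locus called (0.0923%), which was one of the 1004 loci outside the FL_intact list (0.0996% of them). The sign of both small values turned with TMM scaling and with DESeq2.

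Between 12.8 and 7.6 mo the log2 fold change of UID-15218 was 0.74 ± 0.32 (SE; 95% interval 0.09 to 1.38; unadjusted p = 0.027, edgeR adjusted p = 0.17), and between 22.3 and 12.8 mo it was -0.85 ± 0.32 (SE; 95% interval -1.49 to -0.20; unadjusted p = 0.012, edgeR adjusted p = 0.097). In the first of these 110 loci were called (10.2%), 86 higher at 12.8 mo (7.94%), and in the second 114 (10.5%), 90 lower at 22.3 mo (8.31%). The split depended on the scaling, with 90 of 150 calls higher at 12.8 mo and 80 of 134 lower at 22.3 mo under TMM, 79 of 145 and 74 of 123 with total L1 reads, and 83 of 142 and 78 of 128 with DESeq2. Of the 79 FL_intact loci tested 65 (82.3%) were higher at 12.8 than at 7.6 mo, beside 45 of the other 1004 loci (4.48%) called in either direction, and 66 (83.5%) were lower at 22.3 than at 12.8 mo, beside 48 (4.78%). Without the 12.8 mo testes 14 FL_intact loci had enough reads to be tested, so most of the 79 were tested through the 12.8 mo libraries, where they are high, and had to differ. The shares of the list are therefore given as a description, and with mouse 899, 900 or 901 left out the loci tested fell to 28, 28 and 23, of which 15, 19 and 12 were higher at 12.8 than at 7.6 mo and 17, 20 and 15 were lower at 22.3 than at 12.8 mo. The median log2 fold change over all tested loci was 0.21 between 12.8 and 7.6 mo and -0.47 between 22.3 and 12.8 mo.

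Windows of FL_intact loci were longer at 12.8 mo, with a median of 10398 bases against 6699, while those of FL_non-intact loci were shorter, with 5790 against 6690. FL_intact loci held 24.6% of the L1 reads of the 12.8 mo testes and 2.63% of those of the other 9. UID-15218 held 2.19% to 2.63% of the FL_intact reads at 12.8 mo and ranked between 5 and 7 in the list. The 3 called FL_intact loci with the largest fitted fold changes in both comparisons had few or no reads in the shorter window. UID-15219, also on chromosome 18, had 1862, 1274 and 1476 reads at 12.8 mo and 0 in the other 9 testes. UID-16266 had 4439, 5020 and 4805 reads and at most 6 in the others. UID-14747 had 166, 204 and 154 reads and 0 in the others. UID-16266, UID-17289 and UID-15219 also exceeded UID-15218 in mean FPKM over all 12 testes, at 7.91, 2.94 and 2.53 FPKM against 2.05, through the 12.8 mo libraries.

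Highly read curated loci of the FL_non-intact list were set beside it. UID-5948 had a mean of 2.95 FPKM at 12.8 mo against 1.98 FPKM in the other 9 testes, and UID-13740 had 1.68 against 1.22, both higher at 12.8 mo as for UID-15218. UID-4732 had 1.13 against 1.29 FPKM. In each of these 3 loci the 12.8 mo testes overlapped the other testes in FPKM, and the differences between loci were not tested.

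**Figure D4:**
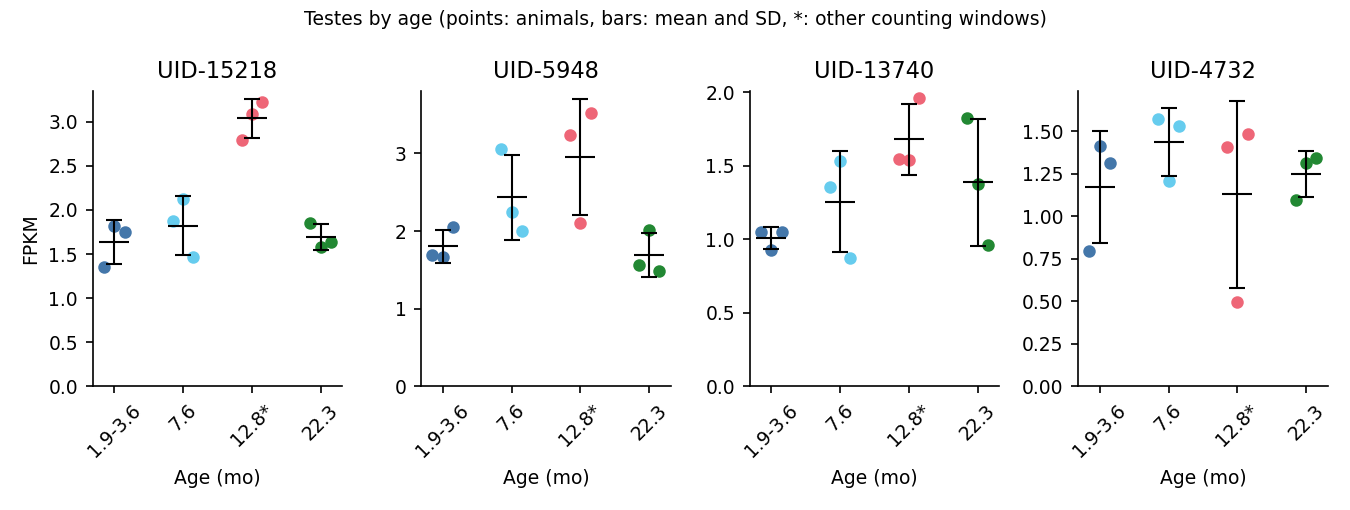
FPKM in 12 testes by age for UID-15218, UID-5948, UID-13740 and UID-4732; points are animals, bars are the mean and SD of 3, and the asterisk marks the age counted in other windows. For UID-15218 the 12.8 mo testes lie at 2.79 to 3.23 FPKM, above the 1.35 to 2.13 FPKM of the other 9, and for the other 3 loci the groups overlap.

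Many loci shared the contrast between testes and the other organs. Over the 68 libraries, Pearson's r of log2(FPKM + 0.01) with UID-15218 was above 0.9 for 470 of 1459 loci with at least 10 reads in at least 3 libraries. The 5 highest were FL_non-intact loci with few or no reads outside testes, UID-401 (r = 0.988), UID-5948 (r = 0.987), UID-5090 (r = 0.987), UID-8818 (r = 0.987) and UID-8080 (r = 0.987). Within the FL_intact list the median r over 175 loci was 0.18, against 0.80 over all. The list had 7025 to 16095 reads in each 12.8 mo brain, liver or lung, counted in the longer window. It had 59 to 557 in each of the other non-testis libraries. FL_intact loci could thus pass the filter through the 12.8 mo libraries, so the low median is not read as a trait of UID-15218. How many of the 175 did so was not counted. Within the list UID-16508 had the highest value (r = 0.977), followed by UID-15676 (r = 0.951), UID-16548 (r = 0.911), UID-17174 (r = 0.899) and UID-14945 (r = 0.897). Without the 12.8 mo libraries UID-16508 was the most alike of all lists (r = 0.996). These values are descriptions over points that share libraries and depth.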

How the data were processed

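The authors deposited raw read counts for each annotated L1 locus, with the number and the fraction of window bases covered by reads, both from bedtools and neither curated nor normalized. As the methods describe, strand-specific paired-end reads were aligned with Bowtie 0.12.8 to mm10, unique concordant alignments were kept, duplicates were removed, and bedtools 2.27.1 counted the reads of each strand. The 12 rat libraries were not analysed here. UID-15218 and the loci set beside it were chosen with earlier results of these data known.

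Entries with the same strand and coordinates were joined, the FL_intact list taking precedence, which left 17019 loci of 17450 entries. In the 12.8 mo files loci were matched by coordinates. Mapped reads per library (8.45 to 51.4 M, testes 22.6 to 43.4 M) were recovered as the ratio of deposited reads to tabulated FPKM over curated loci. At 22.3 mo, joining the table's columns by animal number gave ratios that disagreed between loci (31 of 304 alike in the testis of mouse 830, within a relative tolerance of 0.0002), so they were joined by the counts (313 of 313). This was chosen after the data were seen, and the join by number became an alternative. Reads on L1 loci ranged from 9567 to 109959 per library and from 53232 to 97728 in testes. FPKM was reads divided by 6 kb and mapped reads in M, and 3 reads were used as the floor.

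The groups of testes are separate animals, 3 per age. They were compared by an exact permutation test of log2 FPKM (between-group sum of squares, either direction) and by edgeR 4.0.16 in R 4.3.3 on counts of all loci with at least 10 reads in at least 3 testes, mapped reads as library sizes, 12 testes in 1 fit, with Benjamini-Hochberg adjustment at 0.05. Standard errors and 95% intervals of fold changes came from the F statistic. On simulated data with 178 tested loci changed 4-fold at 7.6 against 1.9-3.6 mo, 88 were called (49.4%), all in the right direction, beside 1 unchanged locus of 1000 tested in all. DESeq2 1.42.0, TMM scaling, total L1 reads, no filter, fits of 2 groups and leaving out each testis were alternatives. Named loci were UID-15218, the 5 FL_intact loci highest in mean FPKM over 12 testes, the 5 most correlated loci of any list and of the FL_intact list, the 3 called FL_intact loci with the largest fold change per comparison, L1 loci within 250 kb, and UID-5948, UID-13740 and UID-4732. UID-17077, UID-16324, UID-16511, UID-914, UID-6793, UID-9761, UID-8317 and UID-11874 were added after their values were seen. No sequence of the locus is printed.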

Additional observations from a re-analysis of the deposited data

How the results depend on the processing

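No paired analysis was possible because the age groups of testes share no animal. UID-15218 was not called in any of 4 age comparisons under any alternative, with adjusted p from 0.87 to 1.0 (7.6 against 1.9-3.6 mo), 0.94 to 1.0 (22.3 against 7.6 mo), 0.12 to 0.58 (12.8 against 7.6 mo) and 0.053 to 0.63 (22.3 against 12.8 mo). Its log2 fold change between 7.6 and 1.9-3.6 mo turned to -0.12 with TMM, -0.031 with total L1 reads and -0.14 with DESeq2, and that between 22.3 and 7.6 mo to 0.12 with TMM, 0.088 with DESeq2 and 0.015 without mouse 1303 (-0.25 to 0.015 over testes left out). With mapped reads as library sizes the median of all tested loci lay at 0.29 and -0.21 in these comparisons. The exact permutation p over ages was 0.70 without 12.8 mo, 0.137 per M L1 reads, and 0.0045 to 0.020 with a testis left out. The causes of these changes were not tested.

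Called loci numbered 2 with TMM and 4 with DESeq2, of 1083 tested, for 7.6 against 1.9-3.6 mo. For 22.3 against 7.6 mo they numbered 4 with TMM and 8 with DESeq2, of 1083 tested. There they numbered 2 of 762 in the fit of the 2 groups and 2 of 911 without 12.8 mo. With a testis left out, 0 to 3 were called there, with 978 to 1075 tested. Leaving out mouse 899 or 901 lowered the calls of 12.8 against 7.6 mo to 53 of 989 or 48 of 978 tested (range 48 to 113). Those of 22.3 against 12.8 mo fell to 45 of 989 or 47 of 978 (range 45 to 130). Without a filter, called FL_intact loci numbered 106 and 123 of 1229 tested in these 2 comparisons, beside 153 and 166 of 8620 loci in all. With a testis left out they numbered 12 to 65 and 15 to 66. Without mouse 899, 900 and 901, of 28, 28 and 23 FL_intact loci tested, they numbered 15, 19 and 12 in the first comparison. In the second they numbered 17, 20 and 15.

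With the annotated length in place of 6 kb, mean FPKM rose to 1.97, 2.19, 3.65 and 2.03 at the 4 ages in order, by construction. Per M L1 reads the lower bounds against livers were 26.2, 46.2, 53.8 and 70.0-fold, and without the liver of mouse 900 the bound at 12.8 mo was 132-fold (110 to 132 over livers left out). Restricting the FL_intact reads to curated loci moved the median share from 18.5% to 93.9%. The most alike locus of any list changed from UID-401 to UID-11874 with a pseudocount of 0.1.

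A floor of 3 reads per library sets the limit outside testes, and each age rests on 3 testes. Unique alignment leaves out reads that fit several L1 copies, so levels count uniquely placed reads. FPKM at 12.8 mo is less certain, since the recovered mapped reads were shared by 135 of 191, 119 of 147 and 137 of 188 curated loci in these testes and by 1 of 3 in the liver of mouse 900.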
